A study of Homo sapiens with 12 samples.

Results

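The knockdown of HIF2A in 786-O cells was compared with the parental line, using 6 of the 12 libraries of the series: the 3 parental and the 3 shHIF2A columns of the count table. 786-O is an established human line from a clear cell carcinoma of the kidney, without functional VHL. The shHIF2A line carries a doxycycline-inducible shRNA against HIF2A, the protein of EPAS1, and both lines were given doxycycline for 72 hours. Medium was RPMI1640 with serum, and lines with shRNAs were selected with antibiotics chosen by the number of genes silenced. The other 6 libraries are from lines with shRNAs against JUN family genes (shJUNs) and against YAP and TAZ (shYAPTAZ), also after doxycycline. A control shRNA line is not among the libraries analysed here, so the loss of HIF2A and the making of the line cannot be told apart. RNA was read by BRB-seq, which counts the 3′ ends of polyadenylated transcripts. The labels call the 3 libraries of a group technical replicates. The p-values thus measure only the spread between libraries of the same group, estimated over all groups of the series.

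HIF2A is the oxygen-regulated subunit of a transcription factor that binds DNA together with ARNT. With oxygen present, prolyl hydroxylases mark it and the VHL ubiquitin ligase destroys it, and without VHL it stays active. In the kidney it is known for driving hormone and growth factor genes, and clear cell carcinomas are named for the lipid and glycogen that fill their cytoplasm.

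Total counts were between 2885287 and 3603339 in the parental libraries and between 2867807 and 3526537 in shHIF2A, and 3 counts equal 0.843 to 1.05 CPM, the unit of counts scaled to library size. Mitochondrial transcripts took 6.91% to 7.64% and 7.20% to 9.37% of counts. Of 12301 genes tested, 1211 were called higher in shHIF2A (9.84%) and 1082 lower (8.8%), at a Benjamini-Hochberg adjusted p under 0.05 in edgeR's quasi-likelihood test. Without parental replicate 1 the number higher was 772. The median log2 change of all genes was 0.01. In what follows, levels are CPM, given for replicates 1, 2 and 3 of a group in turn, and changes are log2 of shHIF2A over parental ± SE with n = 3 libraries in each group. "Rose" and "fell" are used only of genes called, and "list" means a set of genes grouped by function. Of all genes tested, 36.1% had no overlap between the 3 parental and the 3 shHIF2A libraries. Called genes that the naming rule took from the lists, or for the size of their change, had to have no overlap. In those genes the lack of overlap was fixed by the choice.

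Renal markers differed in level. PAX8, a transcription factor of kidney epithelium, read 79.6, 93.6 and 93.6 CPM in parental cells and 101, 95.8 and 103 CPM in shHIF2A. PAX8 had a log2 change of 0.16 ± 0.17 (adjusted p = 0.542). PAX2 was low, at 18.5, 6.47 and 13.002 CPM in parental cells and 13.3, 4.37 and 4.55 CPM in shHIF2A (log2 change -0.75 ± 0.55, adjusted p = 0.367), and CA9, a hypoxia marker driven mainly by HIF1A, was near the floor at 1.75, 3.09 and 1.98 CPM in parental cells and 1.74, 2.495 and 2.102 CPM in shHIF2A. CA9 had a log2 change of -0.11 ± 0.81 (adjusted p = 0.943). VIM, the mesenchymal filament that these carcinomas express, fell 1.58-fold from 16928, 14560.2 and 13379 CPM to 9063, 9532 and 9766 CPM (log2 change -0.66 ± 0.08, adjusted p = 4.13e-06). Blood markers had no count for 5 of 7 genes, PTPRC and CD3E among them, and endothelial markers for 4 of 5, PECAM1 and CDH5 among them. The summed level of 5 fibroblast markers was 29.5 to 34.2 CPM in parental cells and 53.2 to 69.3 CPM in shHIF2A, with COL1A1 called higher and DCN and PDGFRA at no more than 0.701 CPM in any of the 6 libraries. That of 5 neural markers was 54.0 to 85.2 CPM and 23.8 to 48.4 CPM, mostly MBP, which fell, with GFAP and SOX10 at no more than 0.624 CPM. The part of these genes in the results below was not tested, and in bulk RNA fewer cells of a type and less RNA per cell cannot be told apart.

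EPAS1 mRNA was low in every shHIF2A library. EPAS1 (ENSG00000116016, chromosome 2, 46293667 to 46386697, hg38) read 267, 194 and 148 CPM in parental cells and 11.9, 17.5 and 18.6 CPM in shHIF2A. The groups did not overlap, and the level was 12.7-fold lower in shHIF2A (log2 change -3.67 ± 0.33, adjusted p = 6.38e-07). EPAS1 stood at 37.1 ± 1.2 CPM in shJUNs and 113 ± 56.8 CPM in shYAPTAZ (mean ± SD, n = 3). It was lower in shHIF2A than in either (log2 -1.22, adjusted p = 0.029, and -2.82, adjusted p = 7.4e-06). The shJUNs level was thus also below that of every parental library. EGLN3, a prolyl hydroxylase that marks HIF subunits, read 237, 142 and 108 CPM in parental cells and 12.5, 10.3 and 15.4 CPM in shHIF2A and also fell (log2 change -3.67 ± 0.46, adjusted p = 8.22e-05). VHL mRNA read 57.2, 47.8 and 51.7 CPM in parental cells and 53.6, 34.6 and 26.97 CPM in shHIF2A, with overlapping groups (log2 change -0.44 ± 0.26, adjusted p = 0.248). HIF1A, the sister subunit, read 4.89, 4.78 and 8.76 CPM in parental cells and 11.02, 14.3 and 9.11 CPM in shHIF2A. Its rise (log2 change 0.89 ± 0.30, adjusted p = 0.0405) rested on low counts and did not pass with the filter of 1 count (adjusted p = 0.0528), with limma-voom (0.164), in a fit of the 6 libraries alone (0.183), without parental replicate 1 (0.14), without parental replicate 2 (0.156), without shHIF2A replicate 1 (0.0685) or without shHIF2A replicate 2 (0.179). Its level in shJUNs was 6.98 ± 0.93 CPM, not called different from shHIF2A. In shYAPTAZ it was 137 ± 20.2 CPM, called above shHIF2A (mean ± SD, n = 3). Among 7 tested genes of oxygen sensing, HIF1A was the member called higher (14.3%). EPAS1, the target of the shRNA, and EGLN3 were those called lower (28.6%). Of all genes tested, 9.84% were called higher and 8.8% lower.

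Promoter sequences are shown for 4 genes whose changes are described below, because HIF binds a short core, ACGTG or GCGTG, and these genes differ in how many copies their promoters hold; they were picked after values and matches were seen. The sequences run from 250 bases before to 50 bases after the RefSeq start of each gene (RefSeq, GRCh38.p14), 5′ to 3′ along the gene. Capitals mark ACGTG or GCGTG on either strand, so that CACGT and CACGC are also in capitals, and a palindrome such as the one in PLIN2 counts once on each strand. Adjacent or overlapping matches merge into 1 run of capitals.
PLIN2: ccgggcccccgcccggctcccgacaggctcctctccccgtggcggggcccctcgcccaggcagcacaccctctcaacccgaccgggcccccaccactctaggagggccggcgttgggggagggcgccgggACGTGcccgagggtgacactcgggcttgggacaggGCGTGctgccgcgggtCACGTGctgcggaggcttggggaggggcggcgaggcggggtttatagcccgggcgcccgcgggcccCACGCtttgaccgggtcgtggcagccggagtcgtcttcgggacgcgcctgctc
IGFBP3: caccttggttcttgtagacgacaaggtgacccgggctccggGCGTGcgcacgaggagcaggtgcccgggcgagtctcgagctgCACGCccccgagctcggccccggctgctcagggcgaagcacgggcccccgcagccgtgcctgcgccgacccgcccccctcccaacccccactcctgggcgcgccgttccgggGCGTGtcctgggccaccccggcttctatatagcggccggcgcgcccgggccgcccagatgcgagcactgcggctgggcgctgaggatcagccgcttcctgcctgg
S1PR1: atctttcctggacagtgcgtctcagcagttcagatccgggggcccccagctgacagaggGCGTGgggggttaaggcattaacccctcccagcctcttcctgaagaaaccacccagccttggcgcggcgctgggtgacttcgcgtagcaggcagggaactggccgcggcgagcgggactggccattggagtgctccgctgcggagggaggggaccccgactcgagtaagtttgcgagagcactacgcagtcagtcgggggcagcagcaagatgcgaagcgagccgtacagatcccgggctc
ERRFI1: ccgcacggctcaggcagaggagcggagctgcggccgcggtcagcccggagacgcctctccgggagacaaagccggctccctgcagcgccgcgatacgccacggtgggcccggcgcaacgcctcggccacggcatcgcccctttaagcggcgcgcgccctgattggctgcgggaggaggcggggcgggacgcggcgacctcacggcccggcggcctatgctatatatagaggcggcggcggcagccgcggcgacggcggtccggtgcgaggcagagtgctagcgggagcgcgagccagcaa
PLIN2 (chr9:19127443-19127742, minus strand) held 5 matches and fell, and IGFBP3 (chr7:45921223-45921522, minus strand) held 3 and fell. S1PR1 (chr1:101236769-101237068, plus strand) held 1 match and rose, and ERRFI1 (chr1:8026260-8026559, minus strand) held none and fell. Among all 27305 promoters, 48.4% held a match, and over the 9525 tested genes with a promoter 64.2% did. The share was 67.7% of 986 genes called higher, 62.7% of 840 called lower and 63.9% of 7699 not called. A match describes letters in this window and is not a binding site.

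Genes of secreted growth factors and hormones moved in both directions. Of 32 tested, 7 rose (21.9%) and 9 fell (28.1%), with a median log2 change of -0.24, against 9.84% and 8.8% of all genes. The count higher was 3 without parental replicate 1 and 4 without parental replicate 2 or with limma-voom. The genes that fell include hormones and ligands with vascular, renal and epithelial roles. GDF15, a stress hormone of the TGF-beta family (ENSG00000130513, chromosome 19, 18374731 to 18389176), read 422, 280.0 and 188 CPM in parental cells and 43.5, 41.5 and 56.4 CPM in shHIF2A. It was 6.297-fold lower (log2 change -2.65 ± 0.25, adjusted p = 1.8e-07), and the groups did not overlap. Its level was 55.0 ± 13.9 CPM in shJUNs, not called different from shHIF2A. In shYAPTAZ it was 8.13 ± 0.166 CPM, called below shHIF2A (mean ± SD, n = 3). VEGFA, the main angiogenic ligand, read 459.7, 244 and 242 CPM in parental cells and 44.9, 57.4 and 49.7 CPM in shHIF2A. VEGFA had a log2 change of -2.63 ± 0.26 (adjusted p = 7.1e-07).

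TGFA, a ligand of the EGF receptor, read 583, 321 and 287 CPM in parental cells and 30.7, 34.9 and 55.7 CPM in shHIF2A. Parental replicate 1 was the highest, yet each parental library was at least 5 times any shHIF2A library, and the change was 9.84-fold (log2 change -3.30 ± 0.37, adjusted p = 4.68e-05). ADM, the vasodilator adrenomedullin, had the same shape, at 382, 182 and 139 CPM in parental cells and 12.8, 25.3 and 14.7 CPM in shHIF2A. ADM had a log2 change of -3.73 ± 0.43 (adjusted p = 5.08e-05). STC1, the hormone stanniocalcin, read 117, 49.8 and 45.5 CPM in parental cells and 9.57, 8.73 and 7.36 CPM in shHIF2A. STC1 had a log2 change of -3.03 ± 0.39 (adjusted p = 1.19e-05). EDN1, the vasoconstrictor endothelin, fell from 195, 331 and 238 CPM to 80.9, 70.5 and 43.4 CPM (log2 change -1.97 ± 0.27, adjusted p = 6.65e-05). In each of these genes the lowest parental library lay above the highest shHIF2A library. Of all genes tested, 36.1% had no overlap in 1 direction or the other. ADM, STC1, TGFA and EDN1 are list members outside the naming rule and were picked after their values were seen.

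Among the growth factors that rose, KITLG, the ligand of the KIT receptor, read 16.8, 18.3 and 14.4 CPM in parental cells and 45.8, 28.7 and 49.04 CPM in shHIF2A. KITLG had a log2 change of 1.32 ± 0.25 (adjusted p = 0.000912). CCN2, a matricellular factor, read 22.7, 30.6 and 54.3 CPM in parental cells and 106, 107 and 136 CPM in shHIF2A (log2 change 1.69 ± 0.34, adjusted p = 0.00249), and its relative CCN1 read 705, 1819 and 1893 CPM in parental cells and 1053, 1101 and 1195 CPM in shHIF2A, with overlapping groups and no call (log2 change -0.40 ± 0.41, adjusted p = 0.553). BDNF, a neurotrophin, rose from 30.7, 28.1 and 31.1 CPM to 53.3, 65.5 and 67.96 CPM (log2 change 1.05 ± 0.24, adjusted p = 0.00362). HBEGF, another ligand of the EGF receptor, moved opposite to TGFA, at 3.14, 10.1 and 11.3 CPM in parental cells and 23.8, 31.5 and 31.9 CPM in shHIF2A. HBEGF had a log2 change of 1.80 ± 0.48 (adjusted p = 0.0119). HBEGF did not pass without parental replicate 1 (adjusted p = 0.059). BDNF and HBEGF were likewise picked after their values were seen. The plot of ligand, inhibitor and enzyme levels shows both directions side by side.

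**Figure D1:**
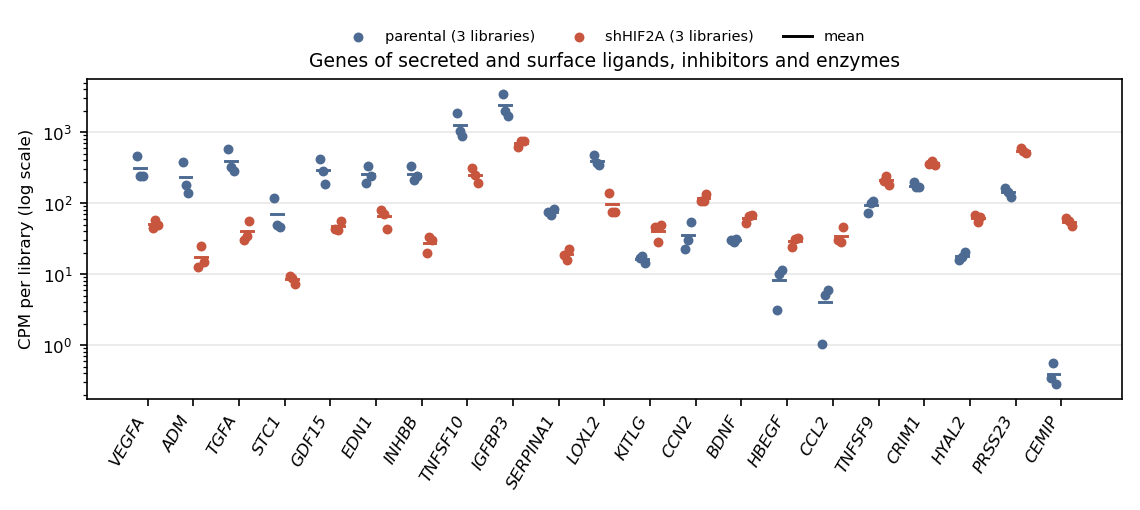
CPM per library on a log axis for 21 genes of secreted or surface proteins, with parental libraries in blue, shHIF2A libraries in red and a line at each mean of 3 libraries. From VEGFA to LOXL2 every shHIF2A point lies below every parental point, and from KITLG to CEMIP every shHIF2A point lies above.

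Binding proteins that carry growth factors or block them also moved both ways. Of 21 tested, 3 rose and 3 fell (14.3% each, median log2 change -0.22), against 9.84% and 8.8% of all genes. Without parental replicate 2 or shHIF2A replicate 1, 1 fell. IGFBP3, the main carrier of insulin-like growth factors (ENSG00000146674, chromosome 7, 45912245 to 45921874), read 3453, 2009 and 1697 CPM in parental cells and 609, 754 and 753 CPM in shHIF2A. It was 3.38-fold lower (log2 change -1.76 ± 0.19, adjusted p = 1.02e-05). IGFBP6, which prefers IGF2, rose from 34.2, 44.99 and 53.7 CPM to 89.6, 97.9 and 78.1 CPM (log2 change 0.99 ± 0.21, adjusted p = 0.00214). CRIM1, a transmembrane binder of BMPs known from kidney development, rose 2.06-fold, from 196, 168 and 168 CPM to 361, 387 and 348 CPM (log2 change 1.05 ± 0.14, adjusted p = 1.36e-05). FSTL3, an activin antagonist, read 152, 131 and 136 CPM in parental cells and 73.05, 99.2 and 109 CPM in shHIF2A. The FSTL3 change of -0.58 ± 0.18 on the log2 scale (adjusted p = 0.03) did not pass without parental replicate 1 (adjusted p = 0.0954), without parental replicate 2 (0.0514), without parental replicate 3 (0.0533), without shHIF2A replicate 1 (0.157) or without shHIF2A replicate 2 (0.0623). FSTL1 read 2215, 2346 and 2346 CPM in parental cells and 2984, 2481 and 2085 CPM in shHIF2A. FSTL1 was not called (log2 change 0.13 ± 0.13, adjusted p = 0.553).

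Of 23 cytokine and chemokine genes tested, 2 rose and 2 fell (8.7% each), against 9.84% and 8.8% of all genes. TNFSF10, the death ligand TRAIL (ENSG00000121858, chromosome 3, 172505508 to 172523475), fell 4.99-fold from 1833, 1043 and 871 CPM to 314, 246 and 190.2 CPM (log2 change -2.32 ± 0.29, adjusted p = 0.000164). TNFSF9, the ligand of the costimulatory receptor 4-1BB, rose from 72.9, 101 and 106 CPM to 206, 240.5 and 181 CPM (log2 change 1.16 ± 0.22, adjusted p = 0.000629). These ligands of 1 family moved apart, and the naming rule required no overlap between groups in either. TNFSF10 stood at 331 ± 23.8 CPM in shJUNs and 286 ± 91.6 CPM in shYAPTAZ (mean ± SD, n = 3). Neither was called different from shHIF2A, while TNFSF9 was called higher in shHIF2A than in either. CCL2, a monocyte chemoattractant, read 1.05, 5.06 and 5.94 CPM in parental cells and 30.4, 28.4 and 45.9 CPM in shHIF2A. The rise of CCL2 (log2 change 3.06 ± 0.91, adjusted p = 0.0402) did not pass with the filter of 1 count (adjusted p = 0.125), with limma-voom (0.141), without parental replicate 1 (0.154), without parental replicate 2 (0.106), without parental replicate 3 (0.0854), without shHIF2A replicate 1 (0.0743), without shHIF2A replicate 2 (0.0674) or without shHIF2A replicate 3 (0.104). SPP1, osteopontin, was not called, at 482, 351 and 304 CPM in parental cells and 453, 352 and 287 CPM in shHIF2A. SPP1 had a log2 change of -0.06 ± 0.43 (adjusted p = 0.951). The count higher was 1 without any single one of parental replicates 1, 2 and 3 and shHIF2A replicates 2 and 3 and 1 with limma-voom, but 4 with a replicate block. The count lower was 1 with the filter of 10 CPM and without parental replicate 3, shHIF2A replicate 1 or shHIF2A replicate 2.

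Secreted proteases, their inhibitors and matrix enzymes gave 7 higher and 6 lower of 37 tested (18.9% and 16.2%, median log2 change -0.02), against 9.84% and 8.8% of all genes. CEMIP, a hyaluronan-degrading protein, was nearly silent in parental cells (0.349, 0.562 and 0.283 CPM) and read 62.3, 55.2 and 47.3 CPM in shHIF2A (log2 change 6.98 ± 0.39, adjusted p = 2.21e-11). CEMIP also stood at 34.7 ± 5.95 CPM in shJUNs and 62.4 ± 1.85 CPM in shYAPTAZ (mean ± SD, n = 3), neither called different from shHIF2A. HYAL2, a hyaluronidase anchored at the cell surface, rose as well, from 15.7, 17.7 and 20.4 CPM to 67.8, 54.3 and 64.5 CPM (log2 change 1.79 ± 0.22, adjusted p = 5.03e-06), and was picked after its values were seen. PRSS23, a serine protease, read 166, 143 and 124 CPM in parental cells and 605, 536 and 507 CPM in shHIF2A. PRSS23 had a log2 change of 1.93 ± 0.15 (adjusted p = 9.2e-09). On the lower side, SERPINA1, the elastase inhibitor alpha-1 antitrypsin, read 73.99, 67.2 and 83.7 CPM in parental cells and 18.8, 15.6 and 22.4 CPM in shHIF2A, 3.96-fold lower (log2 change -1.99 ± 0.22, adjusted p = 1.27e-06). LOXL2, which crosslinks collagen, read 484, 366 and 343 CPM in parental cells and 139, 74.9 and 76.02 CPM in shHIF2A. LOXL2 had a log2 change of -2.03 ± 0.27 (adjusted p = 6.45e-05). CST3, the protease inhibitor cystatin C, read 257, 230.0 and 245 CPM in parental cells and 224, 225 and 172 CPM in shHIF2A. CST3 was not called (log2 change -0.24 ± 0.15, adjusted p = 0.278). Without parental replicate 1, 2 members fell, and without shHIF2A replicate 3, 3 fell.

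Of 25 tested members of the list of receptor tyrosine kinases and coreceptors, 1 rose (4%) and 6 fell (24%), against 9.84% and 8.8% of all genes. The median log2 change was -0.35. Those that fell were AXL, ROR2, EGFR, FGFR1, IGF1R and ERRFI1, the last an adaptor and not a receptor. Without parental replicate 1, EGFR, FGFR1 and IGF1R did not pass and 3 fell. FGFR1 also did not pass without parental replicate 3 (adjusted p = 0.0964), shHIF2A replicate 1 (0.127) or shHIF2A replicate 2 (0.168). Nor did IGF1R pass without parental replicate 2 (adjusted p = 0.105) or without shHIF2A replicate 1 (0.0919), 2 (0.0937) or 3 (0.127). With the filter of 1 count, in a fit of the 6 libraries alone and with a replicate block, 2 rose. ERRFI1, an adaptor that inhibits the EGF receptor (ENSG00000116285, chromosome 1, 8004404 to 8026309), read 1183, 697 and 743 CPM in parental cells and 64.4, 54.6 and 58.9 CPM in shHIF2A. It was 14.7-fold lower (log2 change -3.88 ± 0.19, adjusted p = 5.51e-12), and the lowest parental library stood more than 10 times above the highest shHIF2A library. AXL, the receptor of GAS6, fell 1.54-fold from 305, 254 and 295 CPM to 174, 187 and 193 CPM (log2 change -0.62 ± 0.15, adjusted p = 0.00559). EPHA4, an ephrin receptor, was the member that rose, from 2.09, 7.03 and 3.67 CPM to 26.96, 19.3 and 14.01 CPM (log2 change 2.21 ± 0.43, adjusted p = 0.00094). MET, the receptor of hepatocyte growth factor, read 308, 283 and 297 CPM in parental cells and 248, 212 and 244 CPM in shHIF2A, and did not pass although the groups did not overlap (log2 change -0.33 ± 0.14, adjusted p = 0.097). EGFR itself read 442, 274 and 264 CPM in parental cells and 216, 221 and 138 CPM in shHIF2A (log2 change -0.77 ± 0.21, adjusted p = 0.0164), and its fall did not pass without parental replicate 1 (adjusted p = 0.106) or without shHIF2A replicate 3 (0.0804). EGFR was named after its values were seen.

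Genes of G protein coupled receptors and RGS proteins, which shorten G protein signals, had the highest share that rose of any list: 7 of 27 (25.9%), with 4 lower (14.8%) and a median log2 change of 0.54. Of all genes, 9.84% rose and 8.8% fell. S1PR1, a receptor of sphingosine 1-phosphate (ENSG00000170989, chromosome 1, 101236865 to 101243713), read 19.2, 31.2 and 17.2 CPM in parental cells and 141, 103 and 98.4 CPM in shHIF2A. It was 5.05-fold higher with no overlap (log2 change 2.34 ± 0.28, adjusted p = 3.82e-06). ADGRG1, an adhesion receptor, read 268, 285 and 266 CPM in parental cells and 1035, 839.9 and 577 CPM in shHIF2A. ADGRG1 had a log2 change of 1.58 ± 0.17 (adjusted p = 1.42e-06). ACKR3, a scavenger receptor of CXCL12, fell 8.86-fold from 118, 86.3 and 63.3 CPM to 6.09, 10.9 and 13.3 CPM (log2 change -3.15 ± 0.43, adjusted p = 4.3e-05). Its level in shJUNs was lower still, at 2.07 ± 1.64 CPM. In shYAPTAZ it was 24.3 ± 9.76 CPM, called above shHIF2A (mean ± SD, n = 3). RGS2 rose from 3.84, 5.34 and 3.96 CPM to 16.5, 12.2 and 12.96 CPM (log2 change 1.65 ± 0.37, adjusted p = 0.00283) and RGS3 from 22.7, 17.7 and 15.5 CPM to 46.1, 35.9 and 43.1 CPM (log2 change 1.16 ± 0.25, adjusted p = 0.00211), both picked after their values were seen. RGS10 read 77.8, 59.04 and 67.8 CPM in parental cells and 64.4, 58.01 and 71.1 CPM in shHIF2A. RGS10 was not called (log2 change -0.08 ± 0.18, adjusted p = 0.811). LPAR1, a receptor of lysophosphatidic acid, read 34.6, 31.2 and 31.9 CPM in parental cells and 15.4, 23.1 and 19.3 CPM in shHIF2A. The LPAR1 change of -0.76 ± 0.22 on the log2 scale (adjusted p = 0.0201) did not pass with limma-voom (adjusted p = 0.0543), in a fit of the 6 libraries alone (0.0573), without parental replicate 1 (0.0544) or without shHIF2A replicate 1 (0.0988). Without parental replicate 1 or shHIF2A replicate 2, or in a fit of the 6 libraries alone, 2 members fell, and without shHIF2A replicate 1, 1 fell.

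In the Wnt pathway 1 gene rose (3.45%) and 5 fell (17.2%) of 29 tested, with a median log2 change of -0.24, against 9.84% and 8.8% of all genes. Among Wnt receptors, FZD8 read 79.2, 44.7 and 27.7 CPM in parental cells and 0.5797, 0.312 and 2.102 CPM in shHIF2A. FZD8 had a log2 change of -5.67 ± 0.64 (adjusted p = 1.75e-06). FZD7 read 59.7, 61.6 and 57.7 CPM in parental cells and 23.2, 25.9 and 22.4 CPM in shHIF2A, a tight 2.499-fold fall (log2 change -1.32 ± 0.23, adjusted p = 0.000316). PORCN, the acyltransferase that Wnt proteins need for secretion, fell from 73.99, 92.8 and 77.2 CPM to 39.4, 43.7 and 17.9 CPM (log2 change -1.27 ± 0.26, adjusted p = 0.00139) and was picked after its values were seen. WLS, the carrier that brings Wnt proteins to the cell surface, read 18.5, 32.3 and 18.7 CPM in parental cells and 46.7, 50.2 and 35.4 CPM in shHIF2A. The rise of WLS (log2 change 0.92 ± 0.31, adjusted p = 0.0422) did not pass without parental replicate 1 (adjusted p = 0.152), without parental replicate 3 (0.134), without shHIF2A replicate 1 (0.1) or without shHIF2A replicate 2 (0.142). Without shHIF2A replicate 3, 2 genes of the list rose. CTNNB1, the pathway's transcriptional effector, read 58.6, 87.2 and 75.8 CPM in parental cells and 78.8, 72.4 and 97.04 CPM in shHIF2A. CTNNB1 was not called (log2 change 0.16 ± 0.18, adjusted p = 0.591).

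Notch genes moved both ways. Of 14 tested, 2 rose and 3 fell (14.3% and 21.4%, median log2 change -0.07), against 9.84% and 8.8% of all genes. The 3 Fringe glycosyltransferases, which tune the response of Notch to its ligands, went different ways. LFNG rose 2.02-fold from 88.999, 145 and 176 CPM to 304, 277 and 250.5 CPM (log2 change 1.02 ± 0.18, adjusted p = 0.000457). MFNG fell 10.9-fold from 45.7, 31.8 and 11.02 CPM to 1.16, 3.43 and 3.503 CPM (log2 change -3.45 ± 0.56, adjusted p = 0.00014), and RFNG fell 2.44-fold from 46.4, 29.5 and 24.6 CPM to 14.2, 16.5 and 10.2 CPM (log2 change -1.29 ± 0.30, adjusted p = 0.00477). The ligand JAG1 read 36.6, 32.9 and 51.2 CPM in parental cells and 81.2, 83.6 and 102 CPM in shHIF2A. JAG1 had a log2 change of 1.14 ± 0.23 (adjusted p = 0.00136). ADAM10, the protease that cleaves Notch, read 226, 194 and 219 CPM in parental cells and 217, 217 and 173 CPM in shHIF2A. ADAM10 was not called (log2 change -0.07 ± 0.14, adjusted p = 0.769).

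Feedback genes of the MAP kinase pathway gave 3 higher and 3 lower of 24 tested (12.5% each, median log2 change -0.16), against 9.84% and 8.8% of all genes. DUSP1, a phosphatase that switches MAP kinases off, read 451, 475 and 339.7 CPM in parental cells and 102, 119.8 and 111 CPM in shHIF2A. DUSP1 had a log2 change of -1.93 ± 0.20 (adjusted p = 9.04e-07). DUSP5, a phosphatase of nuclear ERK, read 0.698, 3.09 and 6.501 CPM in parental cells and 11.6, 7.17 and 22.1 CPM in shHIF2A. The DUSP5 change of 1.93 ± 0.53 on the log2 scale (adjusted p = 0.0127) did not pass without parental replicate 1 (adjusted p = 0.0585), without parental replicate 2 (0.0518) or without shHIF2A replicate 3 (0.0929). PHLDA2 read 15.4, 27.3 and 41.8 CPM in parental cells and 59.1, 77.7 and 97.04 CPM in shHIF2A. The PHLDA2 change of 1.45 ± 0.43 on the log2 scale (adjusted p = 0.0297) did not pass without parental replicate 1 (adjusted p = 0.116), without parental replicate 2 (0.102), without shHIF2A replicate 2 (0.0686) or without shHIF2A replicate 3 (0.102). RASA1, which turns RAS off, read 51.7, 41.3 and 38.2 CPM in parental cells and 23.8, 21.5 and 29.4 CPM in shHIF2A. The RASA1 change of -0.81 ± 0.26 on the log2 scale (adjusted p = 0.0299) did not pass without parental replicate 1 (adjusted p = 0.116), without parental replicate 2 (0.0534), without shHIF2A replicate 1 (0.0844) or without shHIF2A replicate 2 (0.111). MAP2K2, a kinase of ERK, read 132, 123 and 111 CPM in parental cells and 121, 114 and 115 CPM in shHIF2A. MAP2K2 was not called (log2 change -0.07 ± 0.16, adjusted p = 0.815). The list's counts moved in both directions: 5 fell with the filter of 1 count, while the 3 members called higher were all lost without parental replicates 1 or 2 or shHIF2A replicate 3, 1 rose without shHIF2A replicate 2, and 1 fell without shHIF2A replicates 1 or 2.

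TGF-beta and BMP genes gave 2 higher (6.25%) and 7 lower (21.9%) of 32 tested, with a median log2 change of -0.26, against 9.84% and 8.8% of all genes. INHBB, which forms activin B (ENSG00000163083, chromosome 2, 120346136 to 120351803), read 329, 210.3 and 238 CPM in parental cells and 20.001, 33.1 and 30.5 CPM in shHIF2A, 9.32-fold lower (log2 change -3.22 ± 0.22, adjusted p = 9.51e-10). TGFB1 read 115, 117 and 65.9 CPM in parental cells and 26.96, 31.2 and 24.2 CPM in shHIF2A. TGFB1 had a log2 change of -1.85 ± 0.27 (adjusted p = 5.71e-05). The receptor gene BMPR2 fell from 79.9, 119 and 90.7 CPM to 57.7, 46.8 and 35.03 CPM (log2 change -1.05 ± 0.21, adjusted p = 0.00139). The effector SMAD4 fell from 75.7, 68.9 and 74.6 CPM to 31.02, 41.2 and 43.1 CPM (log2 change -0.93 ± 0.21, adjusted p = 0.00335). TGFBI, an abundant matrix protein induced by TGF-beta, fell 1.71-fold from 3402, 3057 and 2761 CPM to 2077, 1796 and 1516 CPM (log2 change -0.77 ± 0.16, adjusted p = 0.00266). ID3, a BMP-induced inhibitor of differentiation factors, went the other way, from 79.6, 127 and 165 CPM to 448, 413 and 318 CPM (log2 change 1.66 ± 0.21, adjusted p = 1.24e-05). INHBA, the other activin subunit, read 62.1, 120.3 and 230.1 CPM in parental cells and 183, 208 and 362 CPM in shHIF2A, with overlapping groups and no call (log2 change 0.86 ± 0.67, adjusted p = 0.423). BAMBI, a decoy receptor, read 54.1, 45.3 and 49.2 CPM in parental cells and 87.8, 66.7 and 69.01 CPM in shHIF2A. The BAMBI change of 0.59 ± 0.19 on the log2 scale (adjusted p = 0.0328) did not pass with the filter of 1 count (adjusted p = 0.0512), without parental replicate 2 (0.121), without parental replicate 3 (0.0719) or without shHIF2A replicate 1 (0.153), and 1 gene rose without parental replicate 2 or shHIF2A replicate 1 and with the filter of 1 count. BMPR2, SMAD4 and TGFBI were picked after their values were seen.

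**Figure D2:**
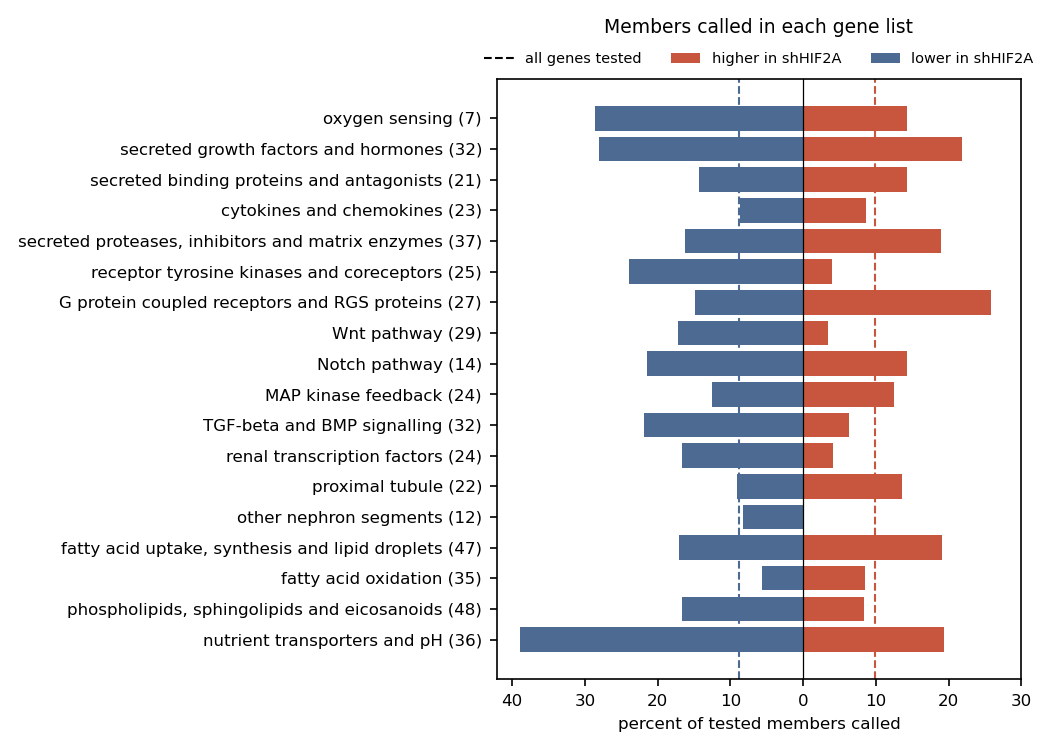
Percent of the tested members of each of 18 gene lists called lower (blue, to the left) or higher (red, to the right) in shHIF2A, with the number tested in brackets and dashed lines at the shares of all 12301 genes, 8.8% lower and 9.84% higher. The nutrient transporter bar reaches 38.9% on the lower side, and the G protein coupled receptor bar reaches 25.9% on the higher side.

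Among renal transcription factors, 1 of 24 tested rose (4.17%) and 4 fell (16.7%), against 9.84% and 8.8% of all genes. LHX1, needed to form the early nephron (ENSG00000273706, chromosome 17, 36936785 to 36944612), read 90.7, 91.1 and 83.7 CPM in parental cells and 44.1, 41.5 and 26.3 CPM in shHIF2A. LHX1 had a log2 change of -1.24 ± 0.25 (adjusted p = 0.00145). Its level in shJUNs was lower still, at 17.6 ± 2.82 CPM. In shYAPTAZ it was 56.6 ± 20.5 CPM, not called different from shHIF2A (mean ± SD, n = 3). HNF4G, a nuclear receptor of proximal tubule, read 11.9, 11.8 and 13.8 CPM in parental cells and 2.899, 1.56 and 3.15 CPM in shHIF2A. HNF4G had a log2 change of -2.29 ± 0.57 (adjusted p = 0.00682). MAF, a leucine zipper factor, fell from 365, 305 and 285 CPM to 154, 156 and 124 CPM (log2 change -1.14 ± 0.27, adjusted p = 0.00795) and was picked after its values were seen. SOX9, a factor of injured and regenerating tubule, read 1.75, 4.499 and 6.501 CPM in parental cells and 10.1, 10.9 and 17.5 CPM in shHIF2A (log2 change 1.56 ± 0.55, adjusted p = 0.0495), and its rise did not pass with RLE scaling (adjusted p = 0.0511), with limma-voom (0.0977), without parental replicate 1 (0.185), without parental replicate 2 (0.113), without shHIF2A replicate 1 (0.0589), without shHIF2A replicate 2 (0.0791) or without shHIF2A replicate 3 (0.166). With the filter of 1 count, with DESeq2 and with a replicate block, 2 genes of the list rose. SOX4 read 306, 328 and 338 CPM in parental cells and 402, 372 and 267 CPM in shHIF2A. SOX4 was not called (log2 change 0.10 ± 0.21, adjusted p = 0.791).

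Most markers of differentiated nephron were too low to test: 22 of 54 proximal tubule genes and 12 of 44 genes of other segments passed the filter, and 16 and 19 had no count in the 6 libraries. Of the proximal tubule genes tested, 3 rose (13.6%) and 2 fell (9.09%), against 9.84% and 8.8% of all genes, and 5 rose in a fit of the 6 libraries alone and with a replicate block. ENPEP, the brush border aminopeptidase that cleaves angiotensin, read 53.1, 41.9 and 39.01 CPM in parental cells and 14.8, 8.11 and 9.81 CPM in shHIF2A, 4.06-fold lower (log2 change -2.02 ± 0.30, adjusted p = 6.11e-05). PCK2, the mitochondrial enzyme that makes phosphoenolpyruvate, read 86.9, 84.1 and 63.6 CPM in parental cells and 19.7, 13.7 and 11.9 CPM in shHIF2A. PCK2 had a log2 change of -2.36 ± 0.23 (adjusted p = 3.36e-07). CDH6, a cadherin of proximal tubule and of renal carcinoma (ENSG00000113361, chromosome 5, 31193686 to 31329146), rose 4.05-fold from 78.2, 68.04 and 80.6 CPM to 405, 346 and 166 CPM (log2 change 2.02 ± 0.37, adjusted p = 0.00285). CDH6 stood at 232 ± 15.5 CPM in shJUNs and 398 ± 186 CPM in shYAPTAZ (mean ± SD, n = 3), neither called different from shHIF2A. CRYAB, a small heat shock protein, read 11.5, 6.75 and 7.63 CPM in parental cells and 45.5, 28.1 and 15.4 CPM in shHIF2A (log2 change 1.79 ± 0.40, adjusted p = 0.00296); its shHIF2A libraries spanned almost 3-fold. DAB2, an endocytic adaptor, read 153, 104 and 96.1 CPM in parental cells and 400.0, 257 and 207 CPM in shHIF2A and did not pass although the groups did not overlap (log2 change 1.30 ± 0.46, adjusted p = 0.0806). DDC, aromatic amino acid decarboxylase, picked after its values were seen, was the other gene called higher (log2 change 3.23 ± 1.15, adjusted p = 0.0474), and it did not pass with the filter of 1 count (adjusted p = 0.0721), without parental replicate 1 (0.171), without parental replicate 2 (0.127), without parental replicate 3 (0.0793), without shHIF2A replicate 1 (0.128), without shHIF2A replicate 2 (0.11) or without shHIF2A replicate 3 (0.0896).

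Of the other nephron genes tested, 1 was called (8.33%), on the lower side, against 8.8% of all genes on that side. In a fit of the 6 libraries alone and with a replicate block, 2 were lower. The gene called was SYNPO, an actin-binding protein of podocytes, at 417, 349 and 268 CPM in parental cells and 141, 115 and 67.6 CPM in shHIF2A. SYNPO had a log2 change of -1.67 ± 0.27 (adjusted p = 0.000319). CLDN4, a tight junction claudin of the collecting duct, read 85.9, 101 and 109 CPM in parental cells and 82.6, 68.9 and 92.5 CPM in shHIF2A with overlapping groups (log2 change -0.28 ± 0.20, adjusted p = 0.345).

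**Figure D3:**
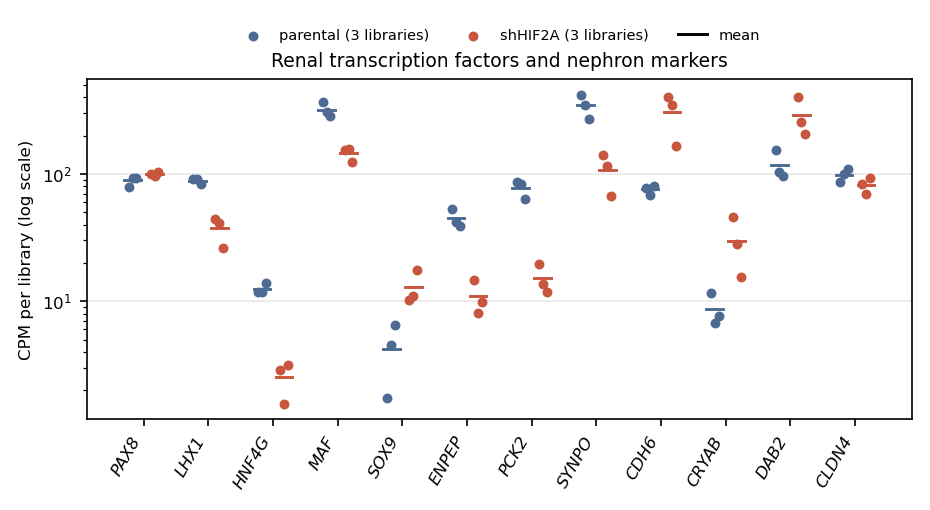
CPM per library on a log axis for 12 renal transcription factors and nephron genes, with parental libraries in blue, shHIF2A libraries in red and a line at each mean of 3 libraries. LHX1, HNF4G, MAF, ENPEP, PCK2 and SYNPO lie lower and CDH6 and CRYAB higher in shHIF2A without overlap, while the CLDN4 libraries overlap. SOX9, called higher, and PAX8 and DAB2, not called, also lie higher without overlap.

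Lipid droplet genes moved both ways. Of 47 tested genes of fatty acid uptake, synthesis and droplets, 9 rose (19.1%) and 8 fell (17%), with a median log2 change of 0.05, against 9.84% and 8.8% of all genes. PLIN2, the main droplet coat protein of clear cell carcinoma (ENSG00000147872, chromosome 9, 19108375 to 19149290), read 995, 506 and 362 CPM in parental cells and 101, 85.5 and 116 CPM in shHIF2A. It was 6.17-fold lower with no overlap (log2 change -2.63 ± 0.29, adjusted p = 1.35e-05). PLIN2 stood at 127 ± 24.2 CPM in shJUNs and 150 ± 4.68 CPM in shYAPTAZ (mean ± SD, n = 3), neither called different from shHIF2A. PLIN3, a more widely expressed coat protein, rose 1.38-fold from 243, 288 and 287 CPM to 390.5, 364 and 377 CPM (log2 change 0.47 ± 0.12, adjusted p = 0.0107). HILPDA, an inhibitor of the droplet lipase ATGL, fell from 95.6, 42.5 and 56.8 CPM to 21.7, 23.7 and 20.3 CPM (log2 change -1.56 ± 0.28, adjusted p = 0.000363). ABHD5, the activator of the same lipase, rose from 9.07, 13.5 and 16.96 CPM to 26.7, 33.997 and 35.4 CPM (log2 change 1.27 ± 0.27, adjusted p = 0.0023). PLIN3 and HILPDA were picked after their values were seen.

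MGLL, which splits monoglycerides, read 275, 229 and 211 CPM in parental cells and 73.6, 62.1 and 64.1 CPM in shHIF2A, 3.58-fold lower (log2 change -1.84 ± 0.18, adjusted p = 2.86e-07). FADS1, a fatty acid desaturase, fell from 266, 359.9 and 395 CPM to 197, 198 and 93.9 CPM (log2 change -1.06 ± 0.21, adjusted p = 0.00133), and SCARB1, a lipoprotein receptor, from 144, 149.6 and 141 CPM to 71.9, 96.7 and 86.9 CPM (log2 change -0.77 ± 0.17, adjusted p = 0.00314); both were picked after their values were seen. ME1, a source of NADPH for lipid synthesis, read 94.9, 99.8 and 116 CPM in parental cells and 145, 196 and 149.6 CPM in shHIF2A. The ME1 change of 0.66 ± 0.16 on the log2 scale (adjusted p = 0.00603) did not pass without shHIF2A replicate 2 (adjusted p = 0.0658). SCD, a desaturase, read 558, 645 and 689 CPM in parental cells and 518, 349 and 213 CPM in shHIF2A. SCD was not called (log2 change -0.81 ± 0.45, adjusted p = 0.261), its shHIF2A libraries lying far apart. SCD5, another desaturase, picked after its values were seen, had 1 count in parental cells and 12 in shHIF2A, a ratio of 12.6 with a 95% counting interval of 1.86 to 537, and its call did not pass with RLE scaling (adjusted p = 0.0505), with the filter of 1 count (0.0664), with limma-voom (0.192), without parental replicate 1 (0.134), without parental replicate 2 (0.143), without shHIF2A replicate 1 (0.0982) or without shHIF2A replicate 3 (0.151). Without parental replicate 1, 3 list genes rose, without shHIF2A replicate 1, 4 rose, and without shHIF2A replicate 2, 5 rose.

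Of 35 fatty acid oxidation genes tested, 3 rose (8.57%) and 2 fell (5.71%), against 9.84% and 8.8% of all genes. PPARGC1A, the coactivator PGC-1alpha, was nearly silent in parental cells at 0.698, 0.281 and 0.283 CPM and read 18.3, 8.42 and 10.9 CPM in shHIF2A (log2 change 4.83 ± 0.94, adjusted p = 0.000806). The mitochondrial enzyme HADH read 69.8, 80.4 and 69.2 CPM in parental cells and 50.7, 33.997 and 42.7 CPM in shHIF2A. The HADH change of -0.78 ± 0.20 on the log2 scale (adjusted p = 0.0076) did not pass without shHIF2A replicate 2 (adjusted p = 0.0506), and 1 gene then fell. ACAA2, the mitochondrial thiolase, read 53.1, 39.1 and 34.2 CPM in parental cells and 20.001, 24.6 and 9.81 CPM in shHIF2A. The ACAA2 change of -1.20 ± 0.31 on the log2 scale (adjusted p = 0.009) did not pass without shHIF2A replicate 3 (adjusted p = 0.0516). ETFA, which passes electrons from these enzymes on, read 159.8, 162 and 175 CPM in parental cells and 197, 201 and 200.4 CPM in shHIF2A. ETFA was not called (log2 change 0.27 ± 0.14, adjusted p = 0.186).

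Phospholipid, sphingolipid and eicosanoid genes gave 4 higher (8.33%) and 8 lower (16.7%) of 48 tested, with a median log2 change of -0.07, against 9.84% and 8.8% of all genes. Without shHIF2A replicate 2, 5 fell. Of the lysophosphatidylcholine acyltransferases, LPCAT1 and LPCAT2 fell, while LPCAT3 (log2 change 0.73 ± 0.33, adjusted p = 0.122) and LPCAT4 (log2 change -0.58 ± 0.46, adjusted p = 0.411), looked up after values were seen, were not called. LPCAT1 (ENSG00000153395, chromosome 5, 1456480 to 1523962) read 171, 177 and 122 CPM in parental cells and 37.1, 42.4 and 56.4 CPM in shHIF2A (log2 change -1.79 ± 0.23, adjusted p = 9.19e-06) and LPCAT2 read 81.7, 105 and 73.5 CPM in parental cells and 25.5, 43.7 and 28.03 CPM in shHIF2A. LPCAT2 had a log2 change of -1.42 ± 0.22 (adjusted p = 0.000125). MBOAT2, a related acyltransferase picked after its values were seen, fell from 75.7, 81.5 and 71.5 CPM to 31.9, 44.9 and 46.9 CPM (log2 change -0.89 ± 0.20, adjusted p = 0.00297). PTGES, which makes prostaglandin E, fell from 25.8, 29.2 and 13.6 CPM to 7.25, 5.302 and 4.204 CPM (log2 change -2.02 ± 0.49, adjusted p = 0.0056) and was picked in the same way. PLPP3, a surface phosphatase of lysophosphatidic acid and sphingosine 1-phosphate, rose from 0, 1.69 and 0.565 CPM to 25.5, 15.6 and 31.2 CPM (log2 change 4.86 ± 0.68, adjusted p = 2.46e-05). PCYT2, of phosphatidylethanolamine synthesis, read 19.9, 21.6 and 16.7 CPM in parental cells and 35.9, 41.8 and 36.8 CPM in shHIF2A. PCYT2 had a log2 change of 0.98 ± 0.25 (adjusted p = 0.00808). UGCG, which makes glucosylceramide, read 479, 662 and 847 CPM in parental cells and 496, 463 and 524 CPM in shHIF2A. UGCG was not called (log2 change -0.42 ± 0.18, adjusted p = 0.107).

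Nutrient transporters and pH regulators had the highest share that fell of any list. Of 36 tested, 14 fell (38.9%) and 7 rose (19.4%), with a median log2 change of -0.19, while 8.8% of all genes fell and 9.84% rose. SLC7A5, the leucine carrier LAT1 (ENSG00000103257, chromosome 16, 87830023 to 87869507), read 1089, 1174 and 1257 CPM in parental cells and 296, 337 and 475 CPM in shHIF2A. It was 3.18-fold lower (log2 change -1.67 ± 0.14, adjusted p = 3.31e-08). Its heavy chain SLC3A2 read 406, 469 and 448 CPM in parental cells and 162, 185 and 242 CPM in shHIF2A. SLC3A2 had a log2 change of -1.17 ± 0.17 (adjusted p = 4.81e-05). SLC1A5, a glutamine carrier, read 445, 365 and 445 CPM in parental cells and 115, 149 and 147 CPM in shHIF2A. SLC1A5 had a log2 change of -1.61 ± 0.18 (adjusted p = 1.76e-06).

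Further amino acid carriers fell without overlap between groups, a trait of 36.1% of all genes tested. SLC38A1, another glutamine carrier, fell from 368, 365 and 360.4 CPM to 115, 131 and 155 CPM (log2 change -1.45 ± 0.14, adjusted p = 3.55e-07), and SLC7A1, of cationic amino acids, from 154, 121 and 121 CPM to 43.8, 44.3 and 69.4 CPM (log2 change -1.33 ± 0.22, adjusted p = 0.000165). SLC7A11, the cystine carrier, fell from 96.3, 154 and 158 CPM to 35.9, 43.7 and 63.8 CPM (log2 change -1.51 ± 0.30, adjusted p = 0.00153). SLC43A2, a carrier of large neutral amino acids, went the other way, from 0.698, 1.69 and 1.13 CPM to 14.2, 16.2 and 13.7 CPM (log2 change 3.58 ± 0.58, adjusted p = 0.00014). SLC3A2, SLC1A5, SLC38A1, SLC7A1 and SLC7A11 were picked after their values were seen.

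Glucose carriers divided as well. SLC2A1, the glucose transporter GLUT1, read 1792, 1606 and 1323 CPM in parental cells and 209, 219 and 216 CPM in shHIF2A. SLC2A1 had a log2 change of -2.87 ± 0.14 (adjusted p = 5.51e-12). SLC2A6 rose from 5.24, 11.5 and 21.2 CPM to 52.5, 72.4 and 47.99 CPM (log2 change 2.16 ± 0.45, adjusted p = 0.00283) and SLC2A8 from 6.63, 15.7 and 19.8 CPM to 39.1, 32.7 and 46.9 CPM (log2 change 1.47 ± 0.32, adjusted p = 0.00247); both proteins sit mainly in inner membranes. Of pH regulators, CA12, a surface carbonic anhydrase, fell 8.74-fold from 395, 269 and 185 CPM to 29.6, 28.7 and 38.9 CPM (log2 change -3.13 ± 0.37, adjusted p = 4.74e-05). The bicarbonate carriers SLC4A2, at 103, 121 and 119.8 CPM in parental cells and 189, 192 and 199 CPM in shHIF2A (log2 change 0.75 ± 0.16, adjusted p = 0.00225), and SLC4A7, at 18.1, 13.8 and 22.05 CPM in parental cells and 29.9, 53.3 and 40.3 CPM in shHIF2A (log2 change 1.19 ± 0.26, adjusted p = 0.00226), rose. SLC16A3, a lactate carrier, read 207, 191 and 215 CPM in parental cells and 231, 261 and 235 CPM in shHIF2A. SLC16A3 was not called (log2 change 0.25 ± 0.13, adjusted p = 0.18). SLC2A6, SLC2A8, CA12 and SLC4A7 were picked after their values were seen.

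**Figure D4:**
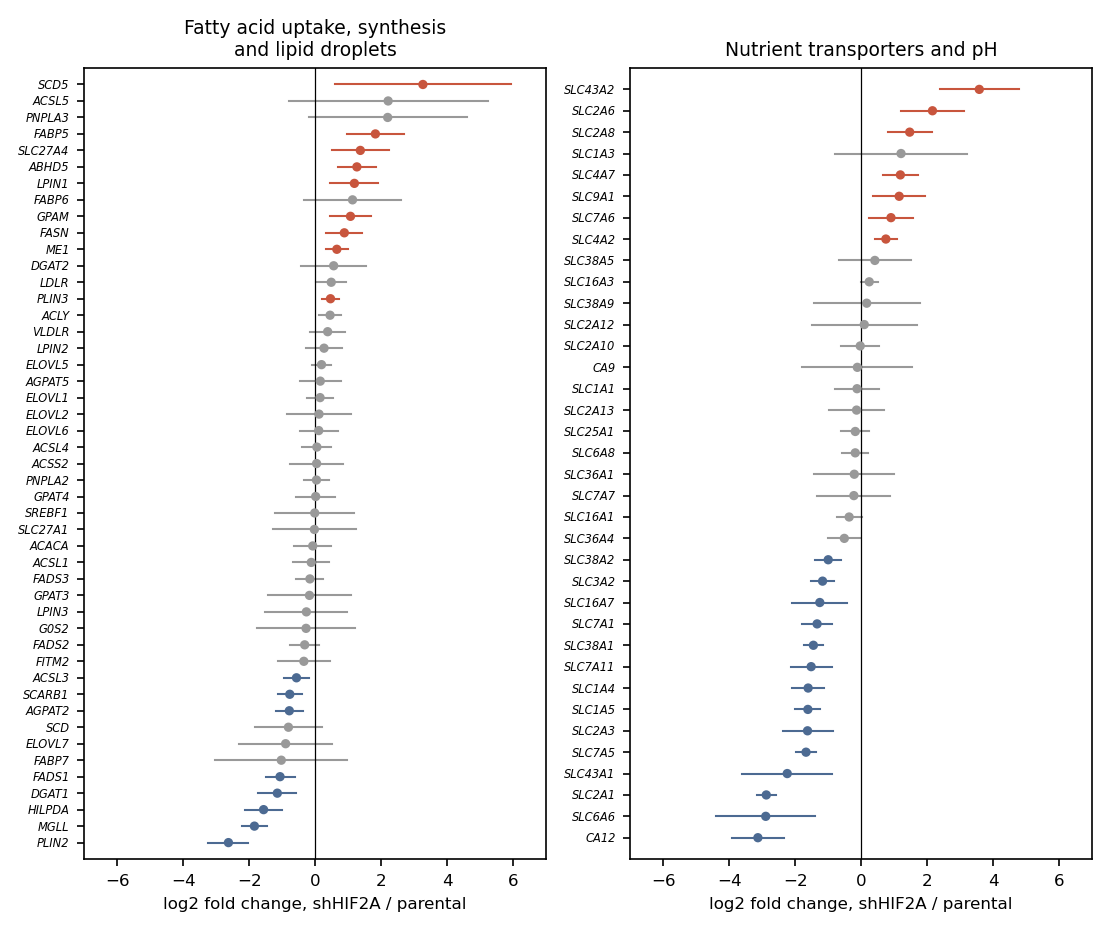
Log2 fold change of shHIF2A over parental with its 95% interval for the 47 tested genes of fatty acid uptake, synthesis and lipid droplets (left) and the 36 tested nutrient transporter and pH genes (right), red where called higher, blue where called lower and grey where not called. PLIN2 is the lowest point on the left and CA12 the lowest on the right.

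The largest changes over all genes, chosen by size, include rises from low levels, each of those below reading under 11 CPM in every parental library. NPR3, the clearance receptor of natriuretic peptides, had 1 count over the parental libraries and 119 over the shHIF2A libraries, a ratio of 125 with a 95% counting interval of 21.9 to 4963. IFI44L, an interferon-stimulated gene, had 3 and 106 counts, a ratio of 37.0 (12.3 to 182). GASK1B rose from 1.396, 1.12 and 4.81 CPM to 93.3, 77.7 and 72.5 CPM (log2 change 5.01 ± 0.40, adjusted p = 1.45e-08). TRIM55, a RING finger protein of muscle sarcomeres, rose 18.6-fold from 8.03, 10.4 and 9.33 CPM to 148, 185 and 187 CPM (log2 change 4.22 ± 0.37, adjusted p = 1.56e-06). IL7R, the interleukin 7 receptor, rose from 0, 1.12 and 2.26 CPM to 15.7, 21.8 and 20.3 CPM (log2 change 3.98 ± 0.54, adjusted p = 1.62e-05), and TMPRSS15, the gut protease enteropeptidase, from 1.05, 0.281 and 0.565 CPM to 15.4, 15.6 and 6.31 CPM (log2 change 4.27 ± 0.89, adjusted p = 0.00181).

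Among the largest falls, CCND1, the cyclin of the G1 phase, read 967, 654 and 547 CPM in parental cells and 15.9, 13.1 and 34.3 CPM in shHIF2A. CCND1 had a log2 change of -5.11 ± 0.32 (adjusted p = 1.86e-08). DENND2A, an exchange factor of RAB GTPases, fell from 42.9, 24.5 and 16.96 CPM to 0.2899, 0.624 and 0.3503 CPM (log2 change -5.94 ± 0.72, adjusted p = 3.65e-06). DEPP1, a FOXO-induced gene, fell 15.95-fold from 659, 516 and 437 CPM to 31.3, 34.6 and 35.03 CPM (log2 change -4.00 ± 0.28, adjusted p = 1.97e-08). MYEOV, next to CCND1 on chromosome 11, read 148, 112 and 118 CPM in parental cells and 0, 2.18 and 2.803 CPM in shHIF2A (log2 change -6.27 ± 0.51, adjusted p = 5.04e-08), and NDRG1 read 65.3, 41.9 and 28.3 CPM in parental cells and 2.03, 0.624 and 0 CPM in shHIF2A. NDRG1 had a log2 change of -5.54 ± 0.85 (adjusted p = 0.00022). The noncoding RNA LUCAT1 read 38.4, 31.8 and 31.4 CPM in parental cells and 1.74, 1.56 and 2.45 CPM in shHIF2A. LUCAT1 had a log2 change of -4.13 ± 0.45 (adjusted p = 1.28e-06). VAV3, a guanine nucleotide exchange factor, read 14.3, 25.3 and 4.24 CPM in parental cells and 1.16, 0.312 and 0.3503 CPM in shHIF2A. The VAV3 change of -4.47 ± 0.94 on the log2 scale (adjusted p = 0.00197) did not pass with limma-voom (adjusted p = 0.0971). PHEX, a peptidase of phosphate balance, read 15.4, 8.997 and 5.94 CPM in parental cells and 0.2899, 1.25 and 0 CPM in shHIF2A. The PHEX change of -4.18 ± 1.27 on the log2 scale (adjusted p = 0.0241) did not pass with limma-voom (adjusted p = 0.0636), without parental replicate 1 (0.0789), without shHIF2A replicate 1 (0.0918) or without shHIF2A replicate 3 (0.0832).

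The largest changes also include loci of microRNAs, and the mature sequences are shown since they name what these loci make; capitals mark the seed, bases 2 to 8 (RefSeq, GRCh38.p14).
hsa-miR-30a-5p: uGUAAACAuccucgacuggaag
hsa-miR-181a-5p: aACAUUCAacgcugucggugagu
hsa-miR-181b-5p: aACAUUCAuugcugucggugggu
The interval counted as MIR30A (ENSG00000207827, chromosome 6, 71403551 to 71403621) is the hairpin alone, and it read 0.698, 0.843 and 0.283 CPM in parental cells and 23.8, 23.7 and 23.8 CPM in shHIF2A. MIR30A had a log2 change of 5.22 ± 0.47 (adjusted p = 5.44e-08). MIR181A2HG (ENSG00000224020, chromosome 9, 124658412 to 124698635), the transcript that holds the hairpins of miR-181a and miR-181b, fell from 22.3, 11.8 and 13.8 CPM to 1.74, 0.936 and 0 CPM (log2 change -4.06 ± 0.71, adjusted p = 0.000316). The miR-181a and miR-181b seeds are the same, and that of miR-30a differs from it. Polyadenylated libraries count longer transcripts and not mature microRNAs.

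Some changes set shHIF2A apart from the other knockdowns as well as from parental cells. In the contrasts with parental, shJUNs and shYAPTAZ, which share the shHIF2A libraries, 60 genes were higher in all 3 (0.488% of those tested) and 119 lower in all 3 (0.967%). Against parental cells alone, 1211 were higher and 1082 lower. Most genes called against parental cells were thus not called against all 3 groups, including genes whose levels in the other lines are not given. The number higher was 29 without parental replicate 2, 30 without shHIF2A replicate 1, 20 without shHIF2A replicate 2 and 35 without shHIF2A replicate 3, and the number lower was 72 without shHIF2A replicate 2. S1PR1, with 21.3 ± 8.51 CPM in shJUNs and 33.1 ± 5.44 CPM in shYAPTAZ (mean ± SD, n = 3), was higher in shHIF2A than in either (log2 2.42, adjusted p = 4.44e-06, and 1.79, adjusted p = 5.56e-05). ADGRG1 likewise stood at 319.7 ± 21.2 CPM and 361 ± 72.7 CPM (log2 1.35, adjusted p = 2.1e-05, and 1.18, adjusted p = 3.76e-05). TMPRSS15 had no count in shJUNs and a mean of 0.106 ± 0.184 CPM in shYAPTAZ.

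HSPA1A, an inducible heat shock protein whose counts are uncertain because HSPA1B is a near-identical copy, read 5.24, 19.7 and 23.5 CPM in parental cells and 44.9, 33.7 and 46.6 CPM in shHIF2A (log2 change 1.36 ± 0.40, adjusted p = 0.0202) and 14.5 ± 2.002 CPM in shJUNs and 0.898 ± 0.819 CPM in shYAPTAZ. Its call against parental cells did not pass without parental replicate 1 (adjusted p = 0.084), without shHIF2A replicate 1 (0.0611) or without shHIF2A replicate 3 (0.0652). LPIN1, a phosphatidate phosphatase, read 37.3, 68.3 and 61.9 CPM in parental cells and 163, 148 and 72.2 CPM in shHIF2A (log2 change 1.19 ± 0.34, adjusted p = 0.0238), and its call did not pass without parental replicate 1 (adjusted p = 0.113), without parental replicate 3 (0.0523), without shHIF2A replicate 1 (0.0873) or without shHIF2A replicate 2 (0.0813). On the lower side, TSPAN2, a tetraspanin, read 32.5, 20.2 and 18.1 CPM in parental cells and 1.74, 1.25 and 4.55 CPM in shHIF2A (log2 change -3.25 ± 0.37, adjusted p = 1.76e-06), against 59.3 ± 12.1 CPM in shJUNs and 119 ± 9.27 CPM in shYAPTAZ. RGS9 read 20.6, 11.8 and 15.8 CPM in parental cells and 2.899, 1.56 and 3.85 CPM in shHIF2A (log2 change -2.53 ± 0.44, adjusted p = 0.000276), against 14.3 ± 4.09 CPM and 16.7 ± 2.32 CPM. RPS6KA5, the kinase MSK1, read 20.2, 16.6 and 23.2 CPM in parental cells and 2.899, 6.55 and 3.85 CPM in shHIF2A (log2 change -2.17 ± 0.38, adjusted p = 0.000319), against 24.3 ± 3.55 CPM and 33.1 ± 12.6 CPM. ALG10B, a glucosyltransferase of glycan precursors, read 9.07, 8.15 and 22.6 CPM in parental cells and 1.74, 0.312 and 2.102 CPM in shHIF2A. ALG10B had a log2 change of -3.25 ± 0.59 (adjusted p = 0.00049). ZNF22 read 11.5, 1.41 and 6.501 CPM in parental cells and 0.5797, 0.624 and 2.803 CPM in shHIF2A, with overlapping groups (log2 change -2.28 ± 0.69, adjusted p = 0.0221), and did not pass with limma-voom (adjusted p = 0.186), without parental replicate 1 (0.145), without shHIF2A replicate 1 (0.0939) or without shHIF2A replicate 2 (0.0994).

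Further genes were picked after their values were seen, for their known roles in kidney, lipid and signalling biology. IRS2, the adaptor of the insulin and IGF receptors (ENSG00000185950, chromosome 13, 109752695 to 109786583), read 888, 752 and 634 CPM in parental cells and 84.6, 86.7 and 52.9 CPM in shHIF2A, 10.1-fold lower (log2 change -3.34 ± 0.21, adjusted p = 5.69e-10). GAL3ST1, which makes the sulfatide of renal carcinoma, read 506, 415 and 359.5 CPM in parental cells and 79.1, 63.004 and 50.4 CPM in shHIF2A. GAL3ST1 had a log2 change of -2.73 ± 0.24 (adjusted p = 2.24e-07). APOL1, a secreted and intracellular apolipoprotein, fell from 684, 798 and 752 CPM to 204, 183 and 117 CPM (log2 change -2.14 ± 0.24, adjusted p = 1.02e-05). C1QL1, a secreted C1q-like protein, read 212, 280.3 and 302 CPM in parental cells and 23.2, 29.6 and 33.98 CPM in shHIF2A. C1QL1 had a log2 change of -3.20 ± 0.21 (adjusted p = 6.76e-10). SEMA6A, a guidance ligand, fell from 133, 168 and 139.6 CPM to 18.8, 22.8 and 7.01 CPM (log2 change -3.16 ± 0.31, adjusted p = 3.55e-07). In each of these 5 genes the groups did not overlap, as in 36.1% of all genes tested.

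NR3C1, the glucocorticoid receptor, read 714, 586 and 545 CPM in parental cells and 157, 153 and 149.6 CPM in shHIF2A, 4.01-fold lower with tight replicates (log2 change -2.00 ± 0.16, adjusted p = 1.21e-08). ZHX2, a transcription factor that VHL is known to target, fell from 188, 136 and 145 CPM to 16.5, 19.03 and 5.96 CPM (log2 change -3.48 ± 0.38, adjusted p = 9.26e-06). ATP1B1, the beta subunit of the sodium pump, fell from 799.9, 846 and 609 CPM to 248, 211 and 189 CPM (log2 change -1.80 ± 0.22, adjusted p = 1.64e-05). ARRDC3, an arrestin of receptor trafficking, fell from 271, 182 and 157 CPM to 28.1, 25.3 and 14.7 CPM (log2 change -3.15 ± 0.35, adjusted p = 1.24e-05). SMPDL3A, a phosphodiesterase related to acid sphingomyelinase, fell from 139, 98.1 and 88.8 CPM to 12.5, 7.17 and 15.4 CPM (log2 change -3.22 ± 0.32, adjusted p = 3.79e-07), and DHRS3, which reduces retinal, from 113, 89.97 and 63.03 CPM to 21.2, 16.2 and 10.9 CPM (log2 change -2.45 ± 0.40, adjusted p = 0.000317). SMPDL3A stood at 12.9 ± 2.35 CPM in shJUNs and 18.1 ± 7.97 CPM in shYAPTAZ (mean ± SD, n = 3), neither called different from shHIF2A. TRIB3, a stress-induced pseudokinase, read 479, 279 and 272 CPM in parental cells and 49.6, 45.8 and 47.6 CPM in shHIF2A. TRIB3 had a log2 change of -2.84 ± 0.22 (adjusted p = 9.2e-09). Its level was 50.3 ± 4.5 CPM in shJUNs, not called different from shHIF2A, and 75.8 ± 19.1 CPM in shYAPTAZ, called above shHIF2A.

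NEFL, a neurofilament, read 160.2, 289.9 and 320.0 CPM in parental cells and 1583, 1458 and 1127 CPM in shHIF2A, 5.405-fold higher (log2 change 2.43 ± 0.20, adjusted p = 5.03e-07). KCNK3, an acid-sensitive potassium channel, rose from 2.79, 1.97 and 0.565 CPM to 29.6, 16.5 and 25.2 CPM (log2 change 3.76 ± 0.47, adjusted p = 6.11e-06). KCNK3 stood at 25.6 ± 9.44 CPM in shJUNs and 42.2 ± 13.8 CPM in shYAPTAZ (mean ± SD, n = 3), neither called different from shHIF2A. The chaperone genes BAG3, at 30.7, 30.6 and 38.7 CPM in parental cells and 95.4, 112 and 114 CPM in shHIF2A (log2 change 1.68 ± 0.20, adjusted p = 5.03e-06), and HSPA8, at 269, 360.4 and 507 CPM in parental cells and 1145, 1304 and 1458 CPM in shHIF2A (log2 change 1.78 ± 0.19, adjusted p = 3.43e-06), rose. So did the proton pump subunits ATP6V0E1, at 342, 437 and 494 CPM in parental cells and 794, 723 and 699.6 CPM in shHIF2A (log2 change 0.80 ± 0.13, adjusted p = 0.000192), and ATP6V1G1, at 253, 218 and 244 CPM in parental cells and 469, 446 and 422 CPM in shHIF2A. ATP6V1G1 had a log2 change of 0.90 ± 0.13 (adjusted p = 4.37e-05). HSPA8 stood at 944 ± 113 CPM in shJUNs and 1210 ± 235 CPM in shYAPTAZ (mean ± SD, n = 3), neither called different from shHIF2A. BAG3, ATP6V0E1 and ATP6V1G1 were called higher in shHIF2A than in either. HMGCS1, of sterol synthesis, rose from 29.3, 28.7 and 39.01 CPM to 82.6, 100.1 and 84.1 CPM (log2 change 1.46 ± 0.23, adjusted p = 0.000129), and INSIG1, a sterol-regulated brake on that pathway, from 184, 344 and 443 CPM to 637, 662 and 498 CPM (log2 change 0.89 ± 0.23, adjusted p = 0.011). TMEM177, a mitochondrial protein, rose from 2.44, 7.03 and 5.09 CPM to 44.6, 42.1 and 47.6 CPM (log2 change 3.17 ± 0.33, adjusted p = 7.1e-07).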

How the data were processed

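Raw counts per gene were deposited for 12 BRB-seq libraries in 1 table; the authors trimmed with Trim Galore and aligned with STAR to hg38, per the submitters' processing notes. For the counting program, strand, molecular identifiers and tool versions, nothing is stated in the sources used here. Of 62705 lines after the header, 3 that broke up 1 gene were left out, leaving 62702 genes. Coordinates are those of the table (hg38).

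Genes passing filterByExpr (12301) were fitted in edgeR 4.0.16 (R 4.3.3) with TMM scaling and a robust quasi-likelihood fit over all 12 libraries, with 1 mean per group; the common dispersion was 0.0628. Calls used a Benjamini-Hochberg adjusted p under 0.05. CPM were scaled by TMM library sizes. SEs came from the F statistics. Ratios of genes with 1 to 3 counts in a group have 95% exact binomial (Clopper-Pearson) intervals, which cover counting error only. Replicates differed beyond counting error (chi-squared per degree of freedom 5.18 to 13.1). The edgeR steps were tested on simulated data.

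The members and lists (18 lists, 722 genes, 495 tested) were chosen with earlier results of these data known. Genes were named by rule: EPAS1; in each list up to 2 members in each direction with the smallest p among those called with a mean of at least 10 CPM and no overlap, and the most abundant member not called; the 10 largest changes in each direction; and 5 in each direction that differed from all 3 other groups. The 10 largest changes were likewise limited to called genes with that mean, no overlap and a symbol of letters and digits only. Genes that differed from all 3 other groups had to reach that mean in the highest group. A further 25 genes, and list members so described, were picked after their values were seen. A gene that the rule chose is not reported here. Alternatives were RLE scaling, filters of 1 count and of 10 CPM, DESeq2 1.42.0, limma-voom (limma 3.58.1), the 6 libraries alone, a replicate block and leaving out each library.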

Additional observations from a re-analysis of the deposited data

How the results depend on the processing

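All alternatives were chosen with earlier results of these data known. Higher calls against parental cells numbered 772 to 1093 and lower calls 762 to 966 when 1 library was left out; calls against all 3 groups numbered 20 to 56 higher and 72 to 123 lower. With limma-voom 92 genes were higher than in all 3 groups. The replicate numbers gave correlations of 0.0451, -0.00873 and 0.0805 between same-numbered libraries and were taken as names only; with a replicate block 116 genes were higher and 190 lower than in all 3 groups, and 1513 higher and 1365 lower than in parental cells. No gene called against parental cells had the opposite sign in any of the 13 alternatives. Of 196 called genes followed one by one (those named and all called list members), 130 passed in every alternative that tested them. Genes not called changed sign when 1 library was left out: the log2 change of FSTL1 spanned -0.0107 to 0.25, of SPP1 -0.24 to 0.14, of RGS10 -0.18 to 0.013, of ADAM10 -0.15 to 0.0263, of SOX4 -0.0194 to 0.26 and of CA9 -0.27 to 0.16. The cause was not tested. Of 468 recounts of lists, 67 moved by more than 1.5 times. Genes near 1 CPM rest on about 3 counts a library. Antisense, overlapping and paralogous genes are uncertain, since the handling of shared reads and strands is unstated.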
